A study of Mus musculus with 26 samples.

Results

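Tendon is recognised in expression data by a small set of genes, of which 8 were followed here: tenomodulin (Tnmd), chondroadherin (Chad), fibromodulin (Fmod), cartilage oligomeric matrix protein (Comp), thrombospondin 4 (Thbs4), tenascin C (Tnc), scleraxis (Scx) and mohawk (Mkx). A probe set, the group of probes on the array that reports 1 transcript, was counted as a member where the platform annotation gave exactly 1 of these symbols. All 8 genes were found, with 15 of the 45101 probe sets: 6 for Fmod, 2 each for Scx and Tnc, and 1 for each of the others. The array holds 18193 genes with a probe set of their own. Total RNA came from TA/EDL (tibialis anterior and extensor digitorum longus), 2 fast muscles of the shin, in 26 mice of mixed C57/BL6 and 129 background, with 1 array for each mouse.

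The mice were littermates with floxed alleles of the PGC-1a gene (FLOX) or with PGC-1a knocked out in skeletal muscle only (MKO), so cells other than muscle fibres are not the target of the knockout. The promoter driving the deletion, the age of the mice and their sex are unknown here. There were 6 FLOX and 7 MKO mice fed a control diet at 90% of free intake, and 6 FLOX and 7 MKO mice on calorie restriction (CR). CR was 80% of free intake in the first week and then a 40% CR diet fed at 60% of free intake, for 12 weeks of diet in all. The series title concerns which changes of CR depend on PGC-1a in muscle. For the tendon genes, the design lets CR be set against the control diet within each genotype, the genotypes be set against each other within each diet, and both diet effects be compared.

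Tendon fibroblasts, or tenocytes, lay down parallel collagen fibres that carry the force of the muscle to bone, and related connective tissue runs into the muscle belly. Scleraxis and mohawk are transcription factors of this lineage, and scleraxis, a basic helix-loop-helix protein, binds E-boxes and is known to act on Tnmd. Tenomodulin is a membrane glycoprotein of mature tenocytes. Fibromodulin and chondroadherin are leucine-rich repeat proteins that bind collagen, Comp and thrombospondin 4 are related pentameric glycoproteins of the thrombospondin family, and tenascin C is a matrix glycoprotein that responds to mechanical load. Chad and Comp are also made in cartilage.

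The bases just before the start of 4 of these genes are shown because Tnmd, Chad, Fmod and Thbs4 had the largest log2 changes between the diets in what follows, and because Scx, a factor that binds E-boxes, did not pass for the diet. Each is the 250 bases before the start from RefSeq, build GRCm38.p6, written 5′ to 3′ on the strand of the gene, with E-boxes (CANNTG, the same on both strands) in capitals.
Tnmd, chrX:133850758-133851007, plus strand: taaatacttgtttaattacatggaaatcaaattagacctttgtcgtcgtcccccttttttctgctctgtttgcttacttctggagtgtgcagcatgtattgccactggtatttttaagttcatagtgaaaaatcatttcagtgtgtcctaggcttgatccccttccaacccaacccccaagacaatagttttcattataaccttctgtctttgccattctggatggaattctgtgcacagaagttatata
Chad, chr11:94564797-94565046, plus strand: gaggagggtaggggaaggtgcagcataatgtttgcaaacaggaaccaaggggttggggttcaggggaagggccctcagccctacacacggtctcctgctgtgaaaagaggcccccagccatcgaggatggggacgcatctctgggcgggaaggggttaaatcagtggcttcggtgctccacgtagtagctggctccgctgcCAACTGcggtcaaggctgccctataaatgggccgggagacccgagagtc
Fmod, chr1:134037004-134037253, plus strand: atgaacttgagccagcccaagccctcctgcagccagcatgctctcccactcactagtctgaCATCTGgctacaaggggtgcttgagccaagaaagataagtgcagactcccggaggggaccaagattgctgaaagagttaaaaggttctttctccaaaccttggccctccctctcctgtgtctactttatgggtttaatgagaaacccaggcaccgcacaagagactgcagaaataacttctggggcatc
Thbs4, chr13:92794819-92795068, minus strand: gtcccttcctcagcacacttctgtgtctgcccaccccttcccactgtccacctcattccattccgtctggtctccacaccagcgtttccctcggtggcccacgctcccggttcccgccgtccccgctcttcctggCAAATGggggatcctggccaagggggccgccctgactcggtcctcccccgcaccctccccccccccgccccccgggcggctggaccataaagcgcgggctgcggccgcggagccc
The windows of Chad, Fmod and Thbs4 held 1 E-box each and that of Tnmd held 0, where 66.2% of 32851 windows of the same length held at least 1. The letters CAGAC, the core bound by Smad proteins, read on both strands, were found 2 times in Fmod and 2 times in Thbs4 and 0 times in Chad and Tnmd (42.2% of windows). A TATA box (TATAAA, both strands) was found in the window of Chad and in none of the other 3 (12.4% of windows). For Tnc, which has 2 starts in RefSeq, the windows held 3 and 2 E-boxes, where 12.2% and 31.8% of windows held at least as many. These 2 windows overlap, and both E-boxes of the second also lie in the first. The early growth response motif GCGGGGGCG, searched on both strands, was matched at 1 site that both windows share. Of all windows 2.57% held a match to it. No match of 1 motif overlapped a match of another in these windows. Such matches describe the letters and say nothing of binding in these muscles.

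The values are intensities on a linear scale, and tests ran in limma on log2(intensity + 16) over 14854 genes, with p-values adjusted by the Benjamini-Hochberg method over all of them. A gene is said to rise or fall at an adjusted p under 0.05. Array minima were 56.6 to 62.8, so changes of dim probe sets are compressed. Of the 8 members 7 were tested, and Mkx lay under the filter on low values. The level of fibre genes went with the label of fast muscle, but intensities of different probe sets are not on a common scale. The 12 fast fibre genes had a mean log2 level of 14.76 to 14.86 on every array, and the 9 slow fibre genes one of 8.91 to 11.09. All genes of both lists passed the filter, so passing it does not bear on the label. The targeted gene did not bear out the genotype label: the probe set tested for Ppargc1a was brighter in the mice labelled MKO, by 1.65-fold on the control diet (adjusted p = 2.46e-05) and 1.52-fold on CR (adjusted p = 0.000201). Its intensity was 911 ± 67.3 and 1104 ± 189 (SD, n = 6 each) in control and CR FLOX mice and 1542 ± 372 and 1674 ± 160 (SD, n = 7 each) in mice labelled MKO. The place of its probes relative to the deleted part is unknown here, and a probe outside that part checks nothing. Directions between genotypes below therefore rest on the label. In RNA from whole muscle, fewer cells of a type and less RNA per cell cannot be told apart.

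CR was followed by lower transcripts of the tendon matrix genes in both genotypes. In FLOX mice 5 of the 7 tested members fell and 0 rose, where 5.37% of all genes tested fell and 4.66% rose (10.0% in all). Of the same 7, 6 fell and 0 rose in mice labelled MKO, where 8.48% of all genes fell and 6.64% rose (15.1% in all). The median log2 change over the 7 members was -0.49 in FLOX and -0.67 in mice labelled MKO, beside 0.00 over all genes in each. Tnmd, Chad, Fmod, Comp and Tnc fell in both genotypes, Thbs4 fell in mice labelled MKO, and Scx passed in neither.

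**Figure D1:**
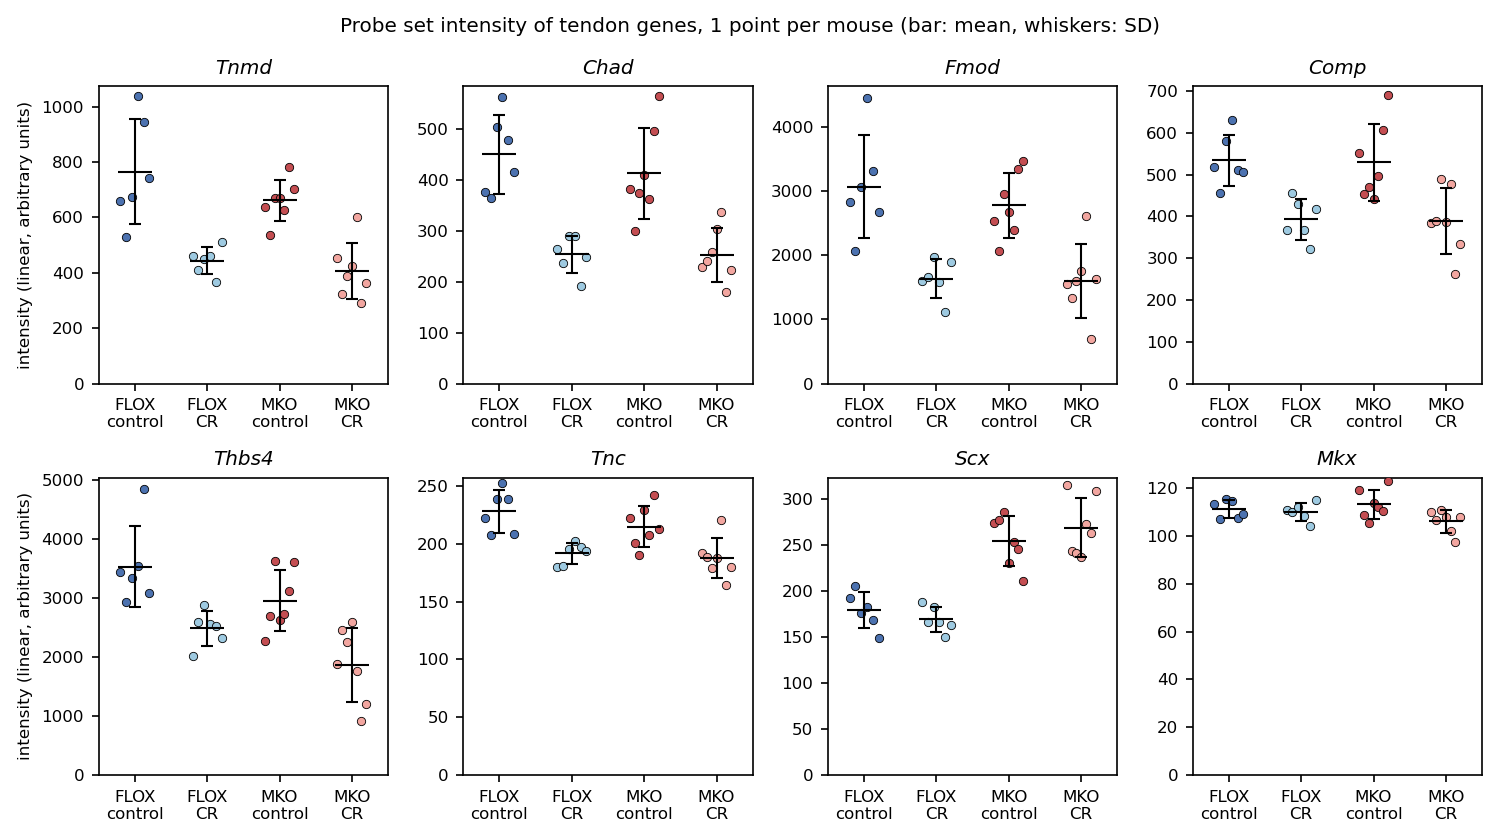
Intensity (vertical axis, linear, starting at 0) of the 8 tendon genes in each mouse, by genotype and diet; Fmod, Scx and Tnc are shown by their brightest probe set, bars are means and whiskers are SD of 6 or 7 mice. Tnmd, Chad, Fmod, Comp, Thbs4 and Tnc sit lower on CR (Thbs4 in FLOX did not pass the test), Scx sits higher in mice labelled MKO, and Mkx stays between 97.5 and 123.

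Tnmd, the gene most often used to mark mature tenocytes, ran from 531 to 1037 (median 708) in the 6 FLOX mice on the control diet and from 368 to 513 (median 455) in the 6 on CR. The 2 groups did not overlap. Such a separation downward was found for 3.08% of all genes in this comparison. The fold decrease in Tnmd was 1.67 (log2 change -0.74 ± 0.14 SE, adjusted p = 0.00118). In the 7 mice labelled MKO on the control diet it ran from 537 to 783 (median 670), and in the 7 on CR from 291 to 600 (median 388). Of these 7, 6 were lower than any control mouse, and CR mouse 5, at 600, was inside the control range; 2.03% of all genes separated fully downward in this comparison. The fall was 1.63-fold (log2 change -0.71 ± 0.13 SE, adjusted p = 0.000496).

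Chad, which links collagen to integrins on the cell surface, gave intensities of 364 to 562 (median 446) in control FLOX mice and 191 to 290 (median 256) in CR FLOX mice, with no overlap. It fell 1.73-fold (log2 change -0.79 ± 0.14 SE, adjusted p = 0.000537). Among mice labelled MKO the ranges were 299 to 565 (median 381) on the control diet and 179 to 336 (median 240) on CR, where 5 of 7 mice were under the control range. The fall there was 1.59-fold (log2 change -0.67 ± 0.13 SE, adjusted p = 0.000728). RefSeq places Chad within the span of Acsf2, on the opposite strand. Acsf2, an acyl-CoA synthetase gene, had a mean of 197 ± 19.1 (SD, n = 6) and 195 ± 14.7 (SD, n = 6) in the 2 FLOX groups and did not pass in either diet comparison (adjusted p = 0.953 in FLOX and 0.812 in mice labelled MKO).

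Fmod, which sets the thickness of collagen fibrils, had the largest fall of the members in both genotypes. Its brightest probe set read 2062 to 4459 (median 2951) in control FLOX mice and 1112 to 1969 (median 1635) in CR FLOX mice, again without overlap. The fall was 1.84-fold (log2 change -0.88 ± 0.21 SE, adjusted p = 0.00689). In mice labelled MKO the same probe set read 2067 to 3476 (median 2684) and, on CR, 697 to 2622 (median 1605). CR mouse 5 alone reached the control range, and the fall was 1.81-fold (log2 change -0.86 ± 0.19 SE, adjusted p = 0.00318). All 6 Fmod probe sets fell in both genotypes when every probe set was tested on its own, by 1.77- to 1.84-fold in FLOX and 1.65- to 1.84-fold in mice labelled MKO. In that fit 3.89% and 6.41% of all probe sets fell, and 6.82% were lower in mice labelled MKO on the control diet. The names of 5 of the 6, the brightest included, end in _x_at, which marks probes able to bind other transcripts.

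Comp, a pentameric protein that brings collagen molecules together, ran from 455 to 631 (median 516) in control FLOX mice and from 322 to 455 (median 393) on CR. The ranges met at 455, where CR mouse 2 lay, and the other 5 on CR were under the control range. It fell 1.34-fold (log2 change -0.43 ± 0.12 SE, adjusted p = 0.0232). This call was the least firm of the 5 in FLOX, and it was lost without control mouse 3 (adjusted p = 0.0529), control mouse 4 (0.0607) or CR mouse 5 (0.0667). In mice labelled MKO, Comp ran from 441 to 691 (median 496) and on CR from 263 to 489 (median 386), a fall of 1.36-fold (log2 change -0.44 ± 0.11 SE, adjusted p = 0.00805). Of the 7 on CR, 5 were under the control range.

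Thbs4, of the same family as Comp, is made by tendon and muscle and gathers at their junction. Its intensity was 2928 to 4842 (median 3390) in control FLOX mice and 2022 to 2884 (median 2545) on CR. No CR mouse reached the control range, yet the test over all 26 arrays did not pass (log2 change -0.49 ± 0.19 SE, 95% interval -0.87 to -0.11, adjusted p = 0.0933). It passed with only the 2 FLOX groups in the fit (adjusted p = 0.0109) and without CR MKO mouse 6 (adjusted p = 0.0343), with the same log2 change of -0.49. Those labelled MKO had ranges of 2264 to 3625 (median 2733) on the control diet and, on CR, 912 to 2583 (median 1879), where 5 of 7 were under the control range. That fall was 1.65-fold (log2 change -0.72 ± 0.17 SE, adjusted p = 0.00467).

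Tnc had the smallest fall of the 6 matrix genes. Its brighter probe set read 208 to 253 (median 230) in control FLOX mice and 180 to 203 (median 195) on CR, without overlap, a fall of 1.17-fold (log2 change -0.23 ± 0.06 SE; adjusted p = 0.0116). In mice labelled MKO it read 190 to 242 (median 213) and 165 to 221 (median 188) on CR, with 5 of 7 under the control range, a fall of 1.14-fold (log2 change -0.18 ± 0.05 SE, adjusted p = 0.0230). This call in mice labelled MKO was lost without control mouse 4 (adjusted p = 0.0523), control mouse 6 (0.0554) or CR mouse 6 (0.0627). It was also lost with only the 2 groups in the fit (0.0541). The other Tnc probe set, a dim one under the filter, did not pass for the diet when every probe set was tested on its own (log2 change -0.11, adjusted p = 0.0565 in FLOX; -0.01, adjusted p = 0.886 in mice labelled MKO).

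The 2 transcription factors did not pass for the diet in either genotype. The brighter Scx probe set read 149 to 206 (median 179) in control FLOX mice and 150 to 188 (median 166) in CR FLOX mice, ranges that overlapped almost wholly. The log2 change was -0.07 with a 95% interval of -0.23 to 0.09 (adjusted p = 0.664). With the MKO label it read 211 to 286 (median 254) and 237 to 315 (median 263), a log2 change of 0.08 with an interval of -0.07 to 0.22 (adjusted p = 0.562). Mkx, read by 1 dim probe set, lay at 111 ± 3.71 and 110 ± 3.70 (SD, n = 6 each) in control and CR FLOX mice and at 113 ± 6.13 and 106 ± 4.67 (SD, n = 7 each) in mice labelled MKO. Tested without the filter, Mkx had an adjusted p of 0.907 in FLOX and 0.102 in mice labelled MKO. So close to the floor of the arrays, these intensities say little about the level of Mkx.

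Scx was the 1 member of 7 called between the genotypes, on each diet, where 19.3% of all genes were called on the control diet and 17.3% on CR. On the control diet all 7 mice labelled MKO (211 to 286) lay above all 6 FLOX mice (149 to 206), and on CR all 7 (237 to 315) lay above all 6 (150 to 188). Such a separation upward was seen for 2.82% of genes on the control diet and 3.17% on CR. Scx was 1.38-fold higher on the control diet (log2 change 0.47 ± 0.08 SE, adjusted p = 6.8e-05), where 9.05% of genes were higher. On CR it was 1.53-fold higher (log2 change 0.62 ± 0.08 SE, adjusted p = 9.9e-07), where 8.23% of genes were higher. The other Scx probe set, a dim one ending in _x_at at 81.2 to 103, did not pass on either diet when every probe set was tested on its own (adjusted p = 0.593 and 0.17).

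RefSeq places Scx within the span of Bop1, a gene of ribosome assembly. The Bop1 probe set on the control diet had a mean of 566 ± 16.8 (SD, n = 6) for FLOX and 593 ± 31.8 (SD, n = 7) for the MKO label, and 574 ± 22.8 (SD, n = 6) and 625 ± 21.9 (SD, n = 7) on CR. It was 1.09-fold higher in mice labelled MKO on CR (adjusted p = 0.0172) and did not pass on the control diet (1.05-fold, adjusted p = 0.207). Whether the Scx probe set reads any Bop1 RNA was not tested.

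The matrix members did not pass between the genotypes. On the control diet the log2 change of MKO against FLOX was -0.18 for Tnmd (95% interval -0.46 to 0.10), -0.13 for Chad (-0.41 to 0.15), -0.12 for Fmod (-0.54 to 0.29) and -0.02 for Comp (-0.26 to 0.22). On CR these 4 lay between -0.15 and -0.01. Thbs4 came nearest: on CR the MKO label went with a 1.40-fold smaller value (log2 change -0.48 ± 0.18 SE, adjusted p = 0.0621), 4 of the 7 were lower than any FLOX mouse, and on the control diet the change was -0.26 (adjusted p = 0.345). It passed on CR after quantile normalization (adjusted p = 0.0429) and without CR MKO mouse 2 (0.0335), 3 (0.0462) or 4 (0.0252). The change was smaller without CR MKO mouse 6 (-0.33, adjusted p = 0.147) and without the mouse of highest slow fibre level in each group (-0.31, adjusted p = 0.253).

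The diet effect itself was not found to differ by genotype for any of the 7 members. In limma 0 passed, 0 had an unadjusted p under 0.05, and 0 of all genes passed (0%), with 720 genes at an unadjusted p under 0.05. The difference between the log2 diet effects, MKO minus FLOX, was 0.03 for Tnmd (95% interval -0.37 to 0.43), 0.12 for Chad (-0.27 to 0.51), 0.03 for Fmod (-0.56 to 0.61), -0.01 for Comp (-0.35 to 0.33), -0.23 for Thbs4 (-0.75 to 0.29), 0.05 for Tnc (-0.12 to 0.21) and 0.15 for Scx (-0.07 to 0.37). The intervals of Chad, Fmod and Thbs4 hold differences of over 0.5, which are therefore not excluded.

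**Figure D2:**
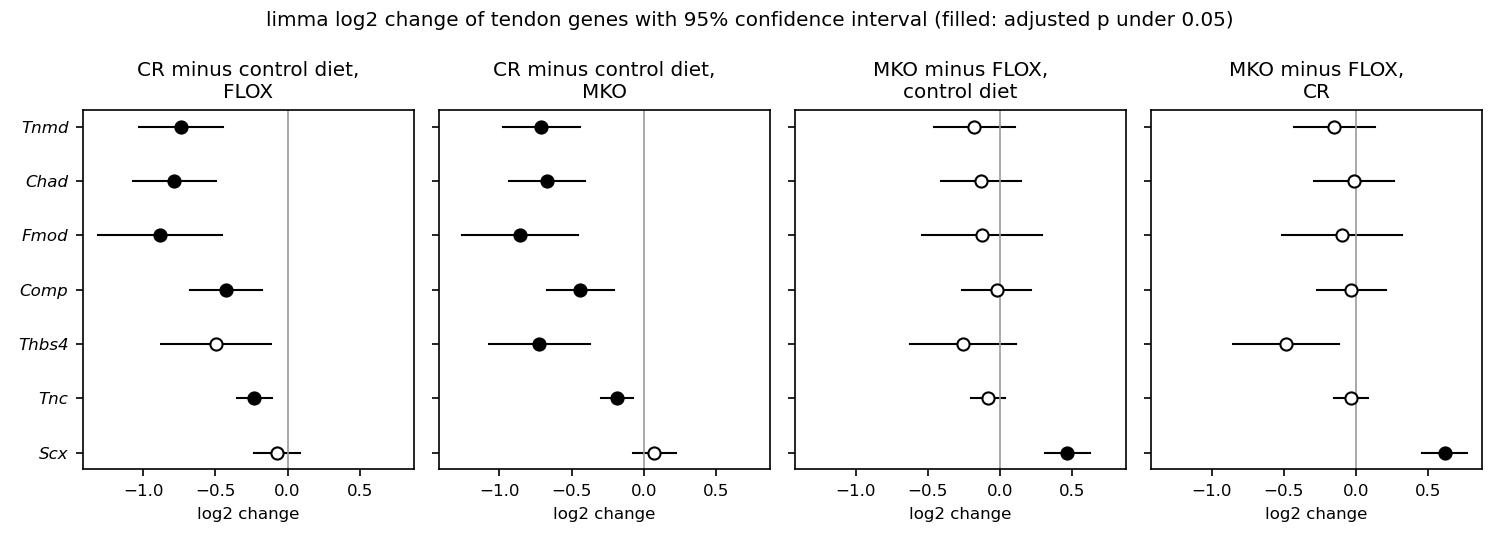
Log2 change (horizontal axis) of the 7 tested tendon genes in 4 comparisons, with 95% confidence intervals; filled points have an adjusted p under 0.05. Points for 5 genes in FLOX and 6 in mice labelled MKO are filled below 0 for the diet, and Scx alone is filled, above 0, for the genotype on each diet.

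Mice of 1 group differed among themselves, and the matrix genes varied together. As deviations of each mouse from the mean of its group, over 26 mice, Tnmd and Fmod had a Pearson r of 0.86 and a Spearman rho of 0.82. Both had the smallest permutation p that 100000 permutations within groups can give (1e-05; adjusted over 21 pairs, 7e-05 for r and 0.00021 for rho). Without the 2 mice farthest from the median of Tnmd, r was 0.81. Chad and Fmod gave 0.85 (rho 0.80, permutation p = 1e-05 and 4e-05, adjusted 7e-05 and 0.00042) and 0.83 without 2 mice. Fmod and Comp gave 0.79 (rho 0.72, permutation p = 5e-05 and 0.00026, adjusted 0.000262 and 0.00109) and 0.68 without 2.

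Of the 15 pairs among the 6 matrix genes, 11 passed with both measures after adjustment, 1 with r alone, 1 with rho alone and 2 with neither. Their r ran from 0.28 for Thbs4 and Tnc to 0.86. Thbs4 was the loosest of them, and its r with Comp, 0.54 (rho 0.49, permutation p = 0.0195 and 0.0198, adjusted 0.0372 and 0.0443), was 0.31 without control MKO mouse 7 and CR MKO mouse 6, so it rests in good part on those mice. Scx passed in 0 of its 6 pairs, with r from -0.35 to -0.04, 0 at an unadjusted permutation p under 0.05 and a lowest adjusted permutation p of 0.187 for r and 0.12 for rho. These tests of 21 pairs used the same arrays as the tests above. The share of all gene pairs that would pass was not computed. Ranked by r with Fmod among 14853 genes, the other matrix genes lay from 2 (Tnmd) to 67 (Thbs4). Ranked by r with Thbs4 they lay from 195 (Comp) to 2003 (Tnc), so many genes outside the set followed Thbs4 more closely.

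**Figure D3:**
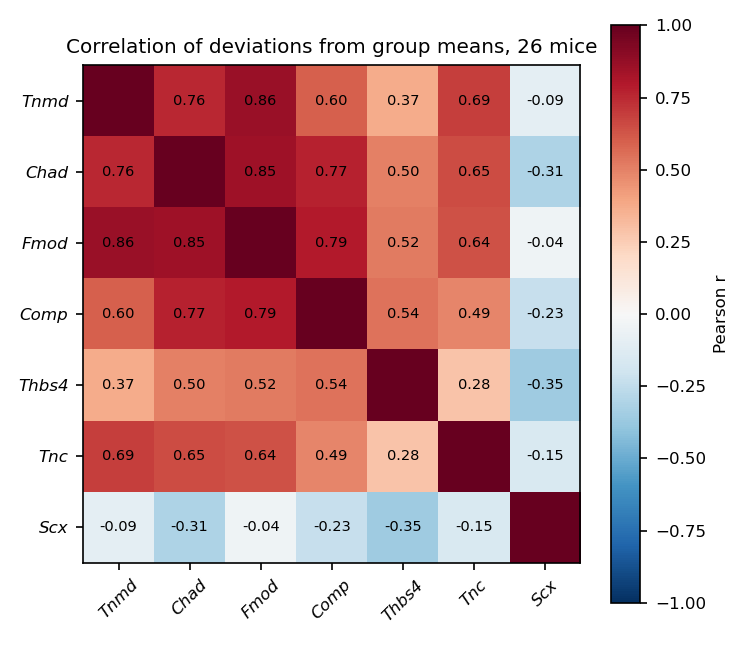
Pearson r (colour and printed value) between the deviations of 7 tendon genes from their group means over 26 mice. The 6 matrix genes are positive with each other, from 0.28 to 0.86, and Scx lies between -0.35 and -0.04 with each of them.

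The shared swing could be read mouse by mouse. Control FLOX mouse 2 was the lowest of its group for all 6 matrix genes, and control FLOX mouse 4 the highest for 5 of 6. Among CR mice labelled MKO, mouse 6 was the lowest for 6 of 6, down to a deviation of -1.09 for Fmod, and mouse 5 the highest for 4 of 6, up to 0.79. CR MKO mouse 6 also had the highest slow fibre level of its group, a mean log2 level of 11.09 over the 9 slow fibre genes against a group median of 9.61. Without the mouse of highest slow fibre level in each group, 5 members still fell in FLOX and 5 in mice labelled MKO, where Tnc no longer passed (adjusted p = 0.137) and the log2 change of Fmod was -0.68.

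**Figure D4:**
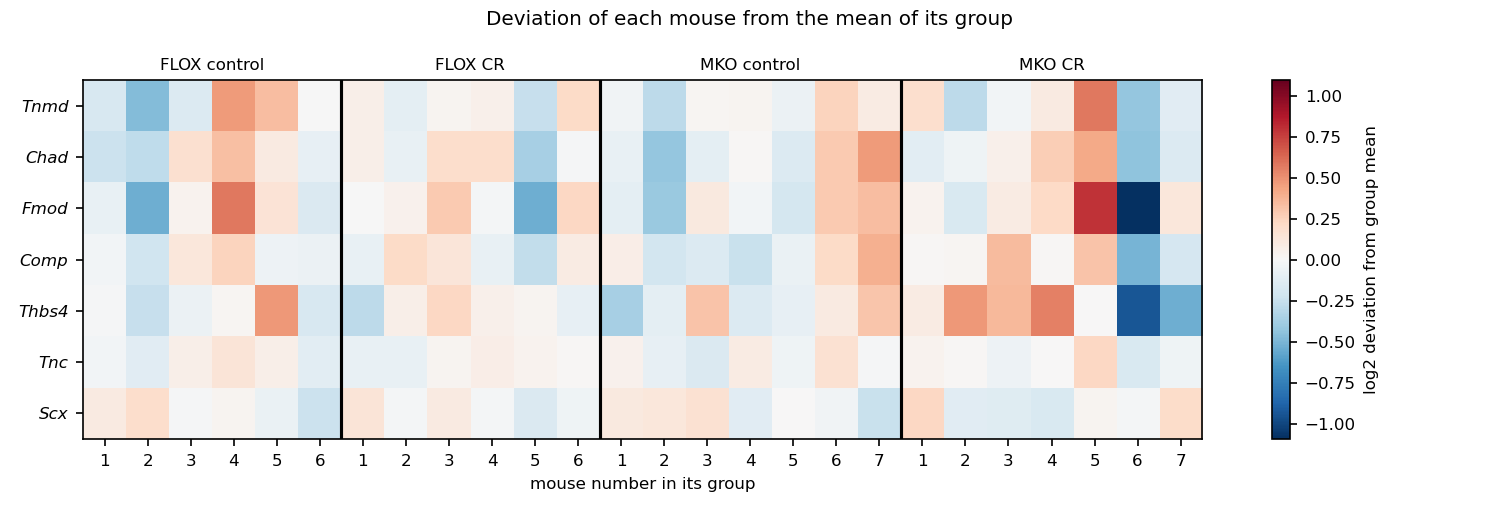
Log2 deviation (colour) of each mouse (columns, by group) from the mean of its group for 7 tendon genes (rows). Columns such as control FLOX mouse 2 and CR MKO mouse 6 are blue in all 6 matrix genes, and CR MKO mouse 5 is red in most.

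The genes outside the set whose deviations were most like each member's were named as the 3 of highest r over the 26 mice, a description with no test. Itgbl1, an integrin beta-like secreted protein gene, and Serpinf1, which codes for pigment epithelium-derived factor, were among the 3 for each of Tnmd, Chad, Fmod and Comp (r = 0.72 to 0.87). Col1a2, a chain of type I collagen, made up the 3 for Tnmd and Chad (0.77 and 0.73), and Crispld2, a secreted protein gene, for Fmod and Comp (0.77 and 0.72). For Tnc they were the cornea and tendon proteoglycan Kera (0.70), the collagen crosslinking enzyme Lox (0.69) and Itm2c (0.65). Each of these 7 genes fell under CR in both genotypes, Serpinf1 by 1.81- and 1.70-fold (adjusted p = 1.79e-05 and 1.38e-05) and Itgbl1 by 1.22- and 1.18-fold (adjusted p = 0.00466 and 0.00569). Among all genes 5.37% fell in FLOX and 8.48% in mice labelled MKO. Col1a2, Kera and Lox are also counted in the tendon matrix list below.

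The 3 genes most like Scx were Tbpl1, related to the TATA-binding protein (r = 0.80), Tmem39a (0.79) and the signalling adaptor Traf2 (0.75). Those most like Thbs4 were the cyclin Ccny (0.77), Trub2, a pseudouridine synthase gene (0.75), and the calcium/calmodulin kinase Camk2g (0.75). None of these 6 genes passed for the diet in limma in either genotype (adjusted p from 0.0527 for Traf2 in FLOX to 0.913 for Tmem39a in mice labelled MKO). Among all genes 10.0% passed in FLOX and 15.1% in mice labelled MKO, and 0 of 6 is near those shares.

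Other genes of tendon and its surroundings were counted in 14 lists. In the tendon matrix list, collagens and small proteoglycans other than the members, 10 of 24 tested genes fell and 0 rose in FLOX (median log2 change -0.25). In mice labelled MKO 13 of 24 fell and 0 rose (-0.24). Of all genes 5.37% fell and 4.66% rose in FLOX, and 8.48% fell and 6.64% rose in mice labelled MKO. Sparc, a collagen-binding matrix protein, fell 1.79- and 1.74-fold (adjusted p = 3.8e-05 and 1.31e-05). Prelp, a leucine-rich proteoglycan, fell 1.60-fold in FLOX (adjusted p = 4.07e-05), and Col5a2, which starts collagen fibrils, fell 1.61-fold in mice labelled MKO (adjusted p = 1.92e-05). Between genotypes on the control diet 1 of the 24 passed, Col1a1, 1.43-fold lower in mice labelled MKO (adjusted p = 0.0356). A larger share of all genes, 19.3%, passed in that comparison.

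The regulators of tendon include TGF-beta ligands and receptors, Smads, early growth response factors and Eya coactivators. Of 21 tested, 4 fell and 0 rose in FLOX, where 5.37% of all genes fell and 4.66% rose. In mice labelled MKO 7 of them fell and 2 rose, where 8.48% of all genes fell and 6.64% rose. Eya1, a transcriptional coactivator, fell 1.22- and 1.38-fold (adjusted p = 0.00821 and 2.06e-05). Tgfb3, a ligand that acts in tendon formation, fell 1.20- and 1.22-fold under CR (adjusted p = 0.00116 and 0.000101). On the control diet 7 of 21 regulators were higher and 1 was lower in mice labelled MKO, where 9.05% of all genes were higher and 10.2% lower. They included Tgfb3, 1.18-fold higher (adjusted p = 0.000814), and Tgfbr1, a TGF-beta receptor, 1.21-fold higher (adjusted p = 0.00215). On CR 4 of 21 were higher and 0 lower in mice labelled MKO, where 8.23% of all genes were higher and 9.05% lower.

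Of 15 integrins and other matrix receptors 3 fell in FLOX, and 4 fell and 1 rose in mice labelled MKO. Itgb5, an integrin subunit, fell 1.49- and 1.42-fold (adjusted p = 3.69e-06 and 3.43e-06), and Itga1, the collagen-binding alpha subunit, 1.27- and 1.33-fold (adjusted p = 0.000245 and 8.35e-06). Of all genes 5.37% fell in FLOX, and 8.48% fell and 6.64% rose in mice labelled MKO. Of 11 genes of the myotendinous junction 1 fell in FLOX, near the share of all genes. This was Lama2, a laminin chain, by 1.23-fold (adjusted p = 0.00698). In mice labelled MKO 2 of the 11 fell and 2 rose. There Lama2 fell 1.25-fold (adjusted p = 0.00122) and Postn, which codes for periostin, 1.30-fold (adjusted p = 0.00309). Of 8 tested cartilage genes 0 fell in limma under CR in either genotype (1 and 2 at an unadjusted p under 0.05), and Sox6 rose 1.10-fold in mice labelled MKO (adjusted p = 0.0449). Of 3 bone genes 0 passed for the diet (1 in FLOX and 0 in mice labelled MKO at an unadjusted p under 0.05).

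Some markers of other cells fell beside the tendon genes, and their part in the result was not tested. The shares of all genes that fell were 5.37% in FLOX and 8.48% in mice labelled MKO. Of 14 tested fibroblast markers 6 fell and 0 rose in FLOX, and 8 fell and 0 rose in mice labelled MKO, with Thy1, a surface protein of fibroblasts, 1.30- and 1.29-fold lower (adjusted p = 0.000356 and 9.6e-05). Cd34, of fibroblast progenitors and vessels, fell 1.32-fold in FLOX (adjusted p = 0.00186), and Fn1, which codes for fibronectin, 1.77-fold in mice labelled MKO (adjusted p = 2.2e-05). The mean log2 level of this list lay at 9.37 to 9.57 in control and 9.11 to 9.45 in CR FLOX mice, and at 9.41 to 9.62 and 8.99 to 9.42 in mice labelled MKO. Of 10 endothelial markers 1 fell in FLOX, near the share of all genes, and 4 in mice labelled MKO, among them Emcn in both (1.16-fold each, adjusted p = 0.00325 and 0.00122) and Kdr, a receptor for VEGF, in mice labelled MKO (1.41-fold, adjusted p = 0.000775). Of 9 macrophage markers 2 fell in FLOX, Cd74 by 2.82-fold (adjusted p = 0.000293) and Adgre1 by 1.11-fold (adjusted p = 0.0299). In mice labelled MKO 1 of the 9 fell, near the share of all genes, Cd74 by 3.07-fold (adjusted p = 2.69e-05). There only 1 of the 9 had an unadjusted p under 0.05.

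Of 7 adipocyte, 5 Schwann cell and 9 smooth muscle and pericyte markers 0 passed for the diet in limma in either genotype. At an unadjusted p under 0.05 there were 0, 0 and 2 in FLOX and 0, 1 and 1 in mice labelled MKO. In limma 10.0% of all genes passed in FLOX and 15.1% in mice labelled MKO. For lists this short a count of 0 is near those shares. In the fast fibre list 1 of 12 genes rose in FLOX, the myosin light chain Mylpf by 1.08-fold (adjusted p = 0.00808), and 2 rose in mice labelled MKO, Mylpf by 1.06-fold (adjusted p = 0.0202) and the fast myosin Myh2 by 1.33-fold (adjusted p = 0.0131). In the slow fibre list 1 of 9 rose in each genotype, the calsequestrin Casq2, by 1.99-fold in FLOX (adjusted p = 0.000207) and 2.96-fold in mice labelled MKO (adjusted p = 2.04e-07). Of all genes 4.66% rose in FLOX and 6.64% in mice labelled MKO, and for lists this short a count of 1 is near those shares. In limma 0 of the tested fast or slow fibre genes fell under CR. Among all genes 5.37% fell in FLOX and 8.48% in mice labelled MKO.

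Between the genotypes on the control diet 19.3% of all genes passed, 9.05% higher and 10.2% lower in mice labelled MKO. Of the 11 junction genes 1 was lower in mice labelled MKO, the integrin adaptor Tln1 (1.37-fold, adjusted p = 0.000584). Another 2 were higher, among them the adhesion scaffold Pxn (1.15-fold, adjusted p = 0.0404). The cartilage gene Ucma (1.10-fold, adjusted p = 0.0185), the fibroblast factor Osr1 (1.10-fold, adjusted p = 0.00264) and the macrophage receptor Csf1r (1.19-fold, adjusted p = 0.0313) were lower. Each was the 1 gene of its list to pass, of 8, 14 and 9 tested, near the 10.2% of all genes that were lower. Of 10 endothelial genes 2 were lower, Tie1 (1.16-fold, adjusted p = 0.00684) and Emcn (1.10-fold, adjusted p = 0.0247), and 0 were higher. Of 7 adipocyte markers 1 passed, the carbonic anhydrase gene Car3, 1.17-fold higher (adjusted p = 0.000314). Of 9 smooth muscle and pericyte markers 1 was higher, the channel subunit gene Abcc9 (1.23-fold, adjusted p = 3.44e-05). Tagln, of smooth muscle, was the 1 lower (1.15-fold, adjusted p = 0.048). Of 9 slow fibre genes 1 was higher, the slow myosin light chain Myl3 (2.36-fold, adjusted p = 0.000366), and 1 lower, Casq2 (1.46-fold, adjusted p = 0.0125). For lists this short, counts of 1 are near the shares of all genes. The part of fibre type in the Scx difference was not tested.

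**Figure D5:**
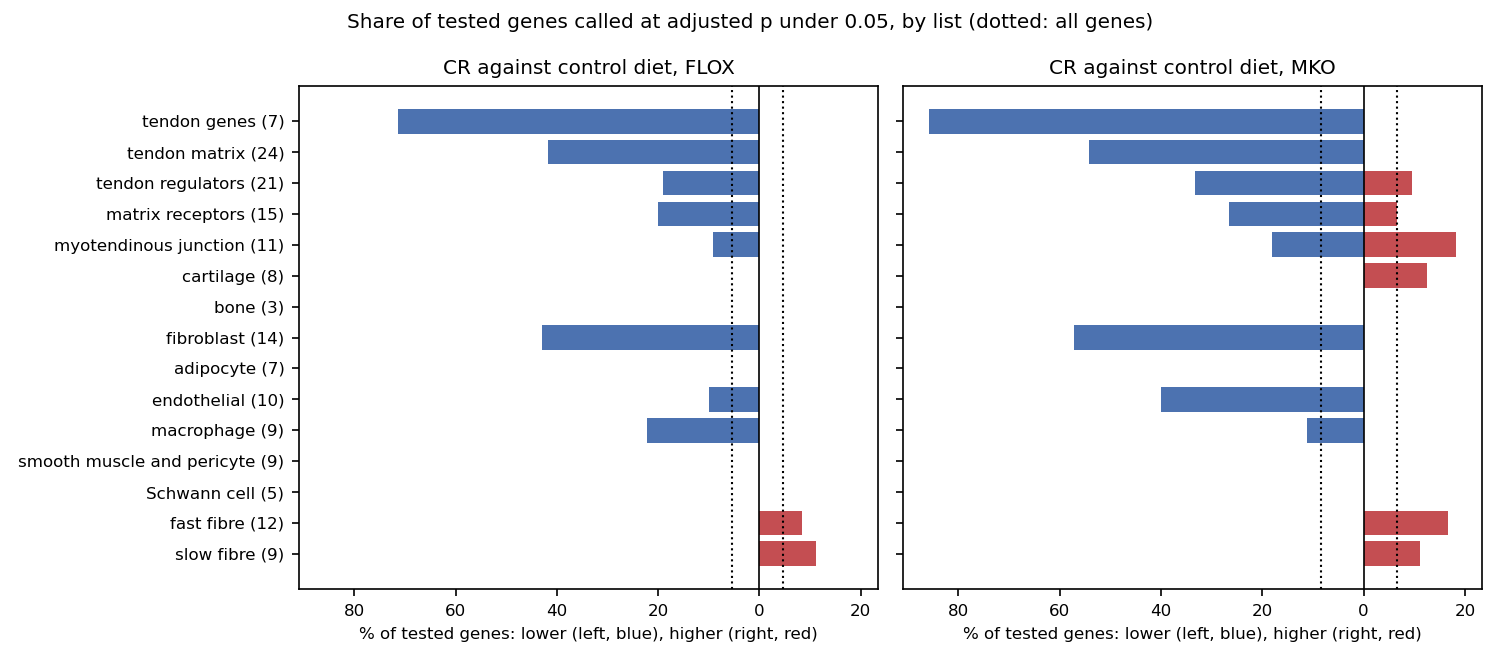
Share of tested genes (horizontal axis, percent; number tested in brackets) that fell (left) or rose (right) under CR in FLOX (left panel) and in mice labelled MKO (right panel), for the tendon genes and 14 other lists; dotted lines are the shares of all genes. The longest bars to the left are those of the tendon genes, 5 of 7 and 6 of 7, then the fibroblast and tendon matrix lists.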

How the data were processed

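Per the labels' protocols, biotin-labelled cRNA from each of 26 mice was read on a 1-colour Affymetrix array. The deposited table holds 1 intensity per probe set and array; no source used here states how the authors corrected, summarised and normalized it. The number of arrays limits the precision.

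Tests used log2(intensity + 16) of the deposited values, with no further normalization. Probe sets naming 1 gene (34945) with a mean at or above the 30th percentile (log2 value 7.47) were kept, with the brightest for each gene. Symbols were updated through RefSeq gene identifiers. limma 3.58.1 in R 4.3.3 fitted 1 mean per group over all 26 arrays, with Benjamini-Hochberg adjustment over 14854 genes; it was tested on simulated data. Labels do not pair equal mouse numbers. Of 37 same-number pairs 16 correlated above 0.1, and the median r was 0.08, against -0.01 for pairs of other numbers. No batch is labelled. Detection calls and scan dates were not used here. Alternatives changed the pseudocount, filter, normalization, probe set rule, variance model, array weights, arrays in the fit, replicate block and threshold, and left out each mouse in turn.

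Of 184 memberships of the 14 lists, 157 entered the tests; 15 were too dim for the filter, and for 12 no probe set named only that gene. Members and lists were chosen with earlier results of these data known. The naming rule takes all members, Ppargc1a, the 3 genes most alike each tested member, and the 2 called genes of smallest p per list for CR in each genotype and for the genotype on the control diet; Acsf2 and Bop1 were added as overlapping genes.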

Additional observations from a re-analysis of the deposited data

How the results depend on the processing

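Counts of members that passed were recomputed under 15 alternatives (14 for the interaction). For CR they stayed at 3 to 6 in FLOX and at 5 or 6 in mice labelled MKO, all of them lower. At an adjusted p under 0.01 the count in FLOX was 3. For the genotype, the filter at the 50th percentile, which removes Scx, left 0 on each diet. Testing every probe set gave 2 on the control diet, and quantile normalization or an adjusted p under 0.10 gave 2 on CR. With 1 mouse left out the counts were 4 to 6 for CR in FLOX, 5 to 6 for CR in mice labelled MKO, 1 to 1 and 1 to 2 for the genotype on the control diet and on CR, and 0 to 0 for the interaction. Scx stayed higher in mice labelled MKO in all 26 such fits (adjusted p up to 0.000354 on the control diet and 5.94e-06 on CR). With the replicate block, the number in the title as a block, the counts were 5, 6, 1, 1 and 0 for the 5 comparisons, and no count changed. The labels do not say that the numbers pair mice. The median r was 0.08 for same-number pairs and -0.01 for pairs of other numbers, a difference that was not tested.

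Changes of sign concerned members that passed in neither fit. For MKO against FLOX on CR, Chad was at 0.00382 with quantile normalization, 0.00451 with median centring and 0.044 without the arrays of highest slow fibre level, where Comp was at 0.095 and Fmod at 0.093 (this last alternative was chosen after seeing the data). On the control diet Comp was at 0.00637 with array weights and 0.013 without those arrays. For the interaction, array weights gave -0.068 for Fmod and -0.024 for Tnmd, and leaving out those arrays gave 0.082 for Comp. With 1 mouse left out, MKO against FLOX on CR ran from -0.087 to 0.060 for Chad, -0.089 to 0.053 for Comp and -0.23 to 0.085 for Fmod. Comp ran from -0.085 to 0.028 on the control diet. The interaction ran from -0.069 to 0.073 for Comp, -0.11 to 0.21 for Fmod and -0.068 to 0.12 for Tnmd. At an adjusted p under 0.01 the genes passing in all were 669 and 1111 for CR in FLOX and MKO (from 1490 and 2246) and 1639 and 1531 for the genotype on the control diet and CR (from 2865 and 2567). The floor of the arrays limits what Mkx and the dim probe sets of Scx and Tnc can show.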

Other observations

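The dim Tnc probe set, left out of the gene test by its low mean, read 91.5 to 108 (median 96.6) in control FLOX mice and 85.1 to 93.0 (median 88.8) in control mice labelled MKO. With every probe set tested on its own it was 1.09-fold lower in mice labelled MKO on the control diet (log2 change -0.12, limma adjusted p = 0.0154), where 6.82% of probe sets were lower, and it did not pass on CR (adjusted p = 0.733). The brighter Tnc probe set had a log2 change of -0.08 between the genotypes on the control diet (adjusted p = 0.349 over genes), in the same direction. The difference between the probe sets was not tested.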
